A study of Homo sapiens with 4 samples.

Results

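The AP-1, BATF and ATF3 transcription factors are encoded by 10 genes of the deposited table, matched by symbol. These are FOS, FOSB, FOSL1, FOSL2, JUN, JUNB, JUND, BATF, BATF3 and ATF3, a set chosen with earlier results of these data known. All 10 were found among the 56638 gene symbols, and all 10 had enough reads to be tested. The cells were MV4;11, an established line of human acute myeloid leukaemia driven by a KMT2A rearrangement and an activated FLT3 receptor. In 2 libraries the cells had been exposed to CU-T12-9, a synthetic compound that activates TLR1/TLR2 heterodimers, at 1 µg/mL for 24 h, and 2 libraries came from vehicle-treated cells. Sample labels name the vehicle as DMSO and the protocol as PBS, so the vehicle group is called DMSO here and an effect of DMSO itself cannot be told apart from absence of the agonist. All libraries are of 1 parental line, and no label says whether those of a group came from separate cultures. The p-values therefore rest on the spread among 4 libraries, which may be technical. In such bulk RNA, fewer cells of a type and less RNA per cell cannot be told apart.

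AP-1 is not a single protein but a set of dimers of basic leucine zipper proteins. FOS proteins cannot pair with themselves and bind DNA with a JUN partner, whereas JUN proteins can also pair with each other. BATF proteins lack a transactivation domain, pair with JUN proteins and bind composite sites together with IRF4 or IRF8, and ATF3 is a stress-induced member that, in mouse macrophages, restrains inflammatory genes switched on through Toll-like receptors. Toll-like receptors reach AP-1 through MyD88, the kinase TAK1 and the ERK, JNK and p38 kinases, and FOS and JUN are classical immediate early genes whose mRNA in many cells is raised only briefly after a stimulus.

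At 24 h of CU-T12-9 the family had moved in both directions. JUN, JUNB and ATF3 rose, FOSL2, FOSL1, BATF3, BATF and, by a small margin, JUND fell, and FOS and FOSB were not called. Thus 3 of 10 members were higher, where 32.0% of all 14018 genes tested were higher, and 5 of 10 were lower, where 33.2% of all genes were lower (edgeR quasi-likelihood test, Benjamini-Hochberg adjusted p under 0.05). In either direction 65.2% of all genes were called, so the number of calls of any size among the members lay near that of the table. Tested against a fold of 1.5, JUN and JUNB were higher (2 of 10 members, 12.6% of all genes) and FOSL2, FOSL1 and BATF3 were lower (3 of 10 members, 12.0% of all genes). Both member shares lay above those of all genes, but they rest on 2 and 3 genes and the difference was not tested. The median log2 fold change of the 10 members was -0.04, and that of all genes tested was 0.00.

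**Figure D1:**
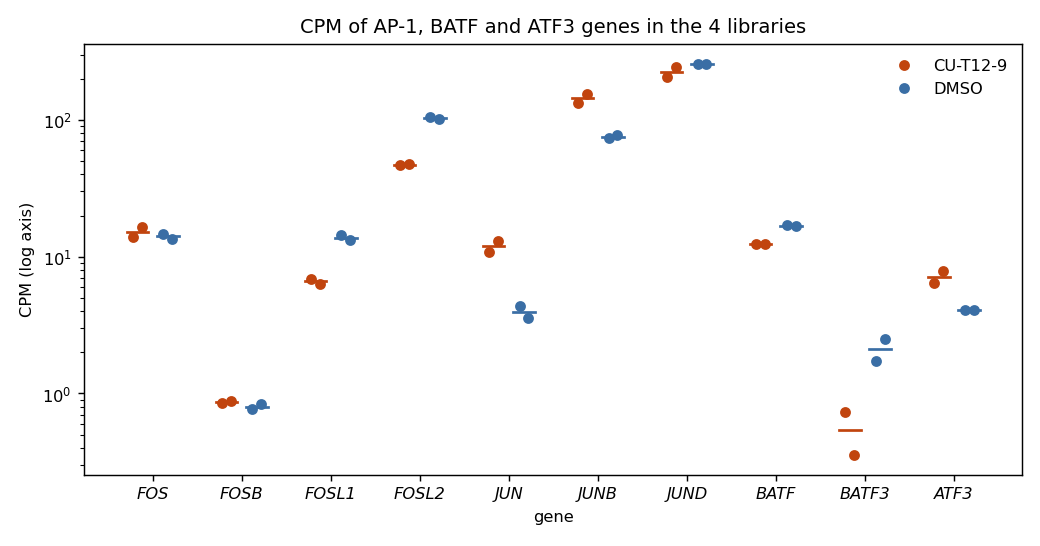
CPM (log axis) of each of the 10 genes in the 2 CU-T12-9 libraries (red) and the 2 DMSO libraries (blue), with a bar at each mean. JUN, JUNB and ATF3 lie higher under CU-T12-9, FOSL1, FOSL2, BATF and BATF3 lie lower, and the points of FOS overlap between the groups.

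The promoter windows of 4 members are shown because each holds a site that AP-1 or ATF dimers can bind, the members themselves being known regulators of some of these genes. Each window runs from 250 bases before to 50 bases after the RefSeq start (GRCh38.p14, not the build of the counts), and 8 of the 10 genes had such a window, ATF3 having 2. Capitals mark the AP-1 site TGACTCA, the cyclic AMP element TGACGTCA and the variant TGACATCA, all searched on both strands. The windows lie at chr1:58783998-58784297 (minus strand, JUN), chr1:212565157-212565456 (plus strand, the first window of ATF3), chr2:28392608-28392907 (plus strand, FOSL2) and chr19:18281573-18281872 (minus strand, JUND).
JUN: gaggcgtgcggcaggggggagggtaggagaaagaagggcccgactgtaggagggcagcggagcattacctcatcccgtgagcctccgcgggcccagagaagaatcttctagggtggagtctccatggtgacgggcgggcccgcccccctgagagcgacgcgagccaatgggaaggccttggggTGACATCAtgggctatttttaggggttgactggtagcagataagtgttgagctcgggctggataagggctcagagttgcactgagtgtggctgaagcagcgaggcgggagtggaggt
ATF3: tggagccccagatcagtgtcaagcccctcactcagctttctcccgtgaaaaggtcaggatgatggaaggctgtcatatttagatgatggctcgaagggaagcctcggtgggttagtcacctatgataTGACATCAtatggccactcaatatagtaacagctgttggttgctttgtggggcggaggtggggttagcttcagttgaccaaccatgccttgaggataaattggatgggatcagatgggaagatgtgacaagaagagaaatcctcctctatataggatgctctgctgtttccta
FOSL2: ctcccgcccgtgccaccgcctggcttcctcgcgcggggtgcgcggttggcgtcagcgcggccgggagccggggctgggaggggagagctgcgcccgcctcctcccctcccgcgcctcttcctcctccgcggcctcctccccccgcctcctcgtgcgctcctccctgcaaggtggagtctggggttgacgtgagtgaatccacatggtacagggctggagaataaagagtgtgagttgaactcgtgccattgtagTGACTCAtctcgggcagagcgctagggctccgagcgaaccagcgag
JUND: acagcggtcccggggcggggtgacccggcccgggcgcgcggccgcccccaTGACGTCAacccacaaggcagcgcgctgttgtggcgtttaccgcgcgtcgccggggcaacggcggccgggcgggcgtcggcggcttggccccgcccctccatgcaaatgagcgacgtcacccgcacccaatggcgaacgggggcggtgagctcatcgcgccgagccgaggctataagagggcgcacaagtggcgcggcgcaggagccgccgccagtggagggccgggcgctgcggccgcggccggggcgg
JUN and ATF3, which both rose, hold TGACATCA starting at positions -67 and -123 from the start. FOSL2, which fell, holds TGACTCA starting at position 5, and JUND holds TGACGTCA starting at position -200. The windows of FOS, FOSB, JUNB and BATF and the second ATF3 window held none of these exact letters. Further variants of these sites were not searched, so such windows may hold close matches. Of these genes, JUNB also rose and BATF also fell. These letters occur in 2.61%, 4.95% and 1.85% of all 35116 promoter windows for TGACATCA, TGACTCA and TGACGTCA in that order. None of the 9 windows of the members held the CArG box of serum response factor or the NF-kB consensus, which 1.29% and 5.91% of all windows hold. Sequence farther than 250 bases before the start was not searched, so such sites may lie there. A match is a description of these letters and not a measured binding site. BATF and ATF3 stood apart in base composition, with 46.0% G and C in the BATF window and 48.0% and 46.3% in the ATF3 windows, against 62.0% to 77.0% in the other members and a median of 58.7% over all windows.

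Among the JUN genes, JUN itself, the strongest activator of the family, had the largest rise. It had 10.8 and 13.1 CPM (reads scaled to library size) in the CU-T12-9 libraries, against 4.34 and 3.59 CPM in the DMSO libraries. Both treated libraries lay above both vehicle libraries, and the rise was 3.0-fold (log2 fold change 1.59, SE 0.15, edgeR adjusted p = 1.73e-05; adjusted p = 0.000178 against a fold of 1.5). A log2 fold change below that of JUN was found in 93.7% of all genes tested. JUNB, which in many cells opposes the growth-promoting action of JUN, had 134 and 154 CPM under CU-T12-9, against 74.4 and 77.0 CPM under DMSO. It rose 1.90-fold without overlap of the groups (log2 fold change 0.93, SE 0.07, edgeR adjusted p = 3.48e-06; adjusted p = 0.000609 against a fold of 1.5). In the GENCODE annotation (GRCh38) an exon of JUNB overlaps one of HOOK2 on the other strand, and the strand setting of the counts is not given, so reads of the shared stretch could fall to either. HOOK2 had 786 and 632 reads under CU-T12-9, against 750 and 713 reads under DMSO, while JUNB had 3135 and 3475 reads, against 1937 and 1844 reads under DMSO.

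JUND, the broadly expressed member of the family, went slightly the other way. It had 206 and 245 CPM in the CU-T12-9 libraries, against 258 and 258 CPM in the DMSO libraries. Both treated libraries lay below the vehicle libraries, but the treated pair was 1.19-fold apart, and the fall was 1.15-fold (log2 fold change -0.20, SE 0.08, edgeR adjusted p = 0.0474). The call held in 4 of 11 alternative analyses, whose adjusted p ran from 9.12e-14 to 0.377. With a library left out, that group has 1 library and the spread comes from the other pair alone, the CU-T12-9 pair being the wider (chi-square per degree of freedom of 7.49 between the CU-T12-9 libraries and 2.55 between the DMSO libraries). Without either DMSO library the log2 fold changes of JUND were -0.21 and -0.20 (adjusted p = 0.0665 and 0.0704), and without the first CU-T12-9 library the value was -0.04 (adjusted p = 0.377). JUND was not called against a fold of 1.5.

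In the FOS family the FOS-related antigens fell and FOS itself did not pass the test. FOSL2, which encodes FRA2, had 46.9 and 47.6 CPM under CU-T12-9, against 105 and 101 CPM under DMSO. The groups were far apart relative to the spread within them, and the fall was 2.18-fold (log2 fold change -1.13, SE 0.06, edgeR adjusted p = 2.11e-07; adjusted p = 6.72e-06 against a fold of 1.5). FOSL1, which encodes FRA1, had 6.89 and 6.32 CPM under CU-T12-9, against 14.4 and 13.3 CPM under DMSO. It fell 2.09-fold with no overlap (log2 fold change -1.07, SE 0.11, edgeR adjusted p = 3.32e-05; adjusted p = 0.00151 against a fold of 1.5). FRA1 and FRA2 lack the strong transactivation domain of FOS.

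FOS, the founding member and a serum- and kinase-induced gene, had 14.0 and 16.4 CPM under CU-T12-9, against 14.7 and 13.4 CPM under DMSO. The groups overlapped, and the log2 fold change of 0.11 had a 95% interval from -0.14 to 0.36 (edgeR adjusted p = 0.411). The value turned with the library left out: with the first CU-T12-9 library left out it was 0.25 (adjusted p = 0.0231), and with the second left out it was -0.01 (adjusted p = 0.911), where both p-values take their spread from the closer DMSO pair alone. FOSB, whose product is closely similar to FOS, had 20 reads in each of the 4 libraries, or 0.855 and 0.884 CPM under CU-T12-9 and 0.768 and 0.835 CPM under DMSO. Its log2 fold change was 0.12, with a 95% interval from -0.57 to 0.81 (edgeR adjusted p = 0.754), so at this depth changes within that range could not be resolved.

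Both BATF genes fell. BATF, which with IRF partners shapes T helper and B cell programmes, had 12.3 and 12.3 CPM under CU-T12-9, against 17.2 and 16.7 CPM under DMSO. The libraries of each group were close together and did not overlap, and the fall was 1.37-fold (log2 fold change -0.46, SE 0.09, edgeR adjusted p = 0.00165). BATF was not called against a fold of 1.5. BATF3, which mice need to form cross-presenting dendritic cells, had 17 and 8 reads under CU-T12-9, against 45 and 60 reads under DMSO. In CPM these were 0.727 and 0.354 under CU-T12-9 and 1.73 and 2.51 under DMSO. With its CU-T12-9 libraries alone BATF3 would not have passed the read minimum for testing, so a test of it leans towards a fall. Despite the wide spread within each pair the groups did not overlap, and the fall was 3.85-fold (log2 fold change -1.95, 95% interval -2.78 to -1.11, edgeR adjusted p = 0.00132; adjusted p = 0.0073 against a fold of 1.5). Its log2 fold change was -1.96 with no filter on low counts, -2.52 without the first CU-T12-9 library and -1.53 without the second. Of all genes tested, 2.50% had a log2 fold change below the -1.95 of the main fit.

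ATF3 had 6.46 and 7.82 CPM in the CU-T12-9 libraries, against 4.11 and 4.09 CPM in the DMSO libraries. It rose 1.74-fold, with both treated libraries above both vehicle libraries (log2 fold change 0.80, SE 0.15, edgeR adjusted p = 0.00144). Against a fold of 1.5 it did not pass (adjusted p = 0.113). ATF3 thus moved opposite to both BATF genes, with a log2 fold change above that of 85.5% of all genes tested.

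**Figure D2:**
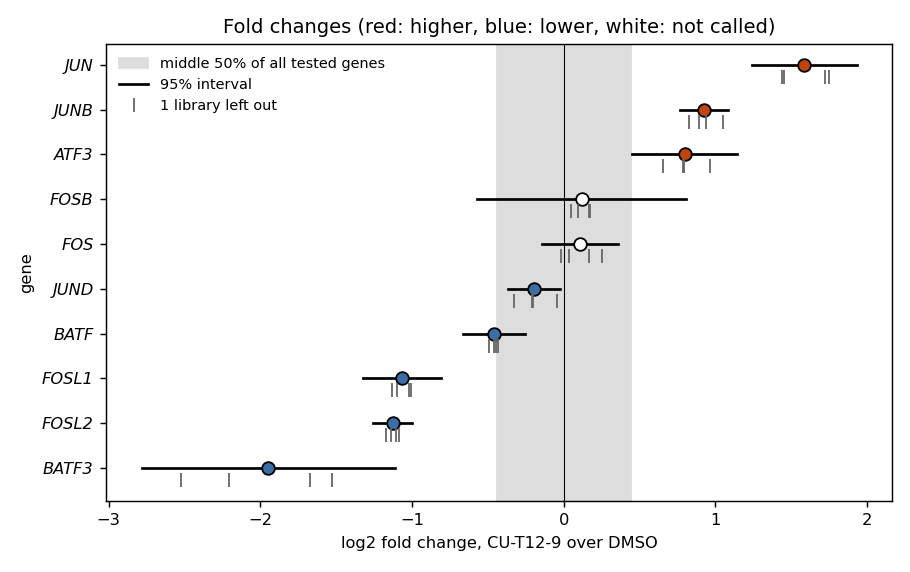
Log2 fold change of each gene, CU-T12-9 over DMSO, with its 95% interval (line) and the values with 1 library left out (grey ticks); the grey band holds the middle 50% of all tested genes, from -0.44 to 0.45. JUN, JUNB, ATF3, FOSL1, FOSL2 and BATF3 have intervals wholly outside that band, that of ATF3 starting at its edge, while JUND, FOS and FOSB are centred inside it.

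Levels of different genes were compared as CPM per kb of annotated exon, with exon lengths from GENCODE (GRCh38), since the annotation behind the counts is not given. JUND was the most abundant member, at 121 ± 15.0 CPM per kb under CU-T12-9 and 139 ± 0.238 CPM per kb under DMSO (SD, n = 2 in each group), and JUNB was next, at 79.0 ± 7.58 and 41.6 ± 1.03 CPM per kb. BATF followed at 12.6 ± 0.0211 CPM per kb under CU-T12-9 and 17.3 ± 0.359 CPM per kb under DMSO. FOSL2 ranked below it in both groups, at 6.60 ± 0.0636 CPM per kb under CU-T12-9 and 14.4 ± 0.435 CPM per kb under DMSO. The order then changed. Under CU-T12-9 FOS, at 4.70 ± 0.537 CPM per kb, stood above FOSL1 at 3.50 ± 0.212 CPM per kb, and under DMSO FOSL1, at 7.32 ± 0.404 CPM per kb, stood above FOS at 4.35 ± 0.283 CPM per kb. JUN was at 3.38 ± 0.452 CPM per kb under CU-T12-9 and 1.12 ± 0.149 CPM per kb under DMSO, so that its values overlapped those of FOSL1 in the treated group and those of ATF3 in the vehicle group. ATF3 was at 1.77 ± 0.239 CPM per kb under CU-T12-9 and 1.01 ± 0.00267 CPM per kb under DMSO. BATF3 and FOSB were at the bottom, below 1 CPM per kb in every library, and their values overlapped under CU-T12-9.

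On this scale the JUN genes held most of the family's mRNA in every library. JUN, JUNB and JUND together made up 86.5% and 88.0% of the sum of the 10 genes under CU-T12-9, against 79.6% and 80.4% under DMSO. The FOS genes made up 6.79% and 6.10% under CU-T12-9, against 11.9% and 11.2% under DMSO. The sum of the JUN genes was 12.8 and 14.4 times that of the FOS genes in the CU-T12-9 libraries, against 6.68 and 7.15 times in the DMSO libraries. The groups did not overlap, but with 2 libraries each an exact 2-sided permutation test cannot go below its value here, p = 0.333. These ratios are formed within a library and do not depend on how libraries are scaled, but they do depend on the exon lengths.

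**Figure D3:**
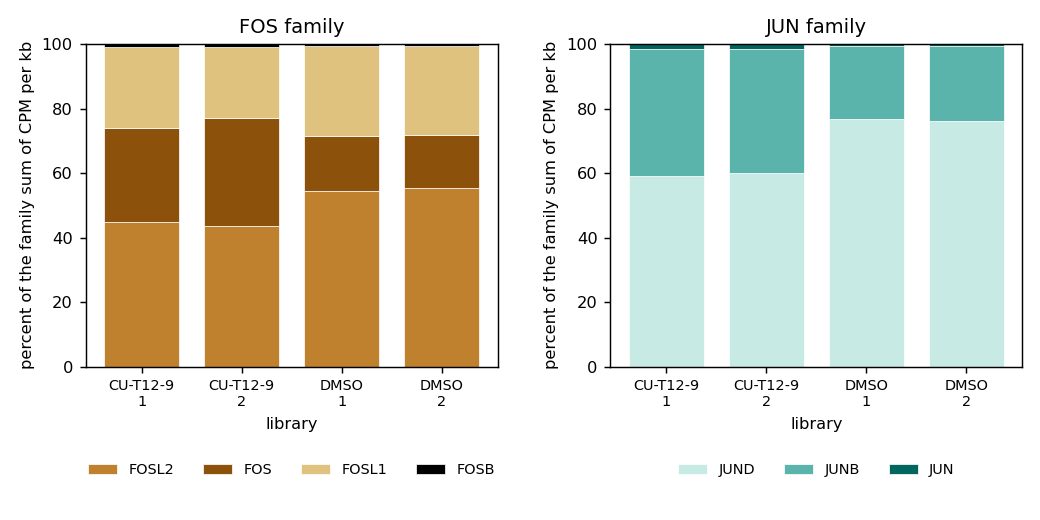
Share of each gene in the summed CPM per kb of its family (percent), for the FOS family (left) and the JUN family (right), 1 bar per library with the CU-T12-9 libraries to the left of the DMSO libraries. FOS takes 29.4% and 33.3% of the FOS family under CU-T12-9 against 16.8% and 16.3% under DMSO, and JUNB takes 39.4% and 38.4% of the JUN family against 22.6% and 23.2%.

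Within the families the make-up shifted. FOSL2 was the main FOS-family mRNA in all libraries, at 44.7% and 43.6% of the family under CU-T12-9 and 54.5% and 55.4% under DMSO. FOS took 29.4% and 33.3% under CU-T12-9, against 16.8% and 16.3% under DMSO, with no overlap, although its own level was not called as changed. In the JUN family, JUNB took 39.4% and 38.4% under CU-T12-9, against 22.6% and 23.2% under DMSO, and JUND took 59.0% and 59.9%, against 76.7% and 76.2% under DMSO. JUN stayed a minor part on this scale, at 1.63% and 1.68% under CU-T12-9 and 0.679% and 0.557% under DMSO.

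Genes around AP-1 were counted by list, to be read beside the 32.0% higher and 33.2% lower calls and the median of 0.00 over all genes. Calls against a fold of 1.5 are to be read beside 12.6% higher and 12.0% lower over all genes. The other bZIP relatives and partners were called higher in 9 of 16 tested cases and lower in 2, out of 18 listed, with a median log2 fold change of 0.29. BATF2, the BATF relative that was not among the members, rose: it had 85 and 78 reads under CU-T12-9, against 27 and 12 reads under DMSO (log2 fold change 2.18, SE 0.29, edgeR adjusted p = 0.000159; 2.80 without the first DMSO library). NFE2L2, which encodes NRF2 and pairs with small MAF proteins, averaged 551 ± 15.9 CPM under CU-T12-9 and 156 ± 7.70 CPM under DMSO (SD, n = 2 in each group). NFE2 and the small MAF gene MAFK were the genes of this list that fell, with log2 fold changes of -0.83 and -0.42, the MAFK call being lost without the second DMSO library (adjusted p = 0.0732).

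Among the MAP kinases above AP-1, 9 of 22 were higher and 6 lower (3 lower in DESeq2 and also without the first DMSO library), with a median log2 fold change of 0.14, and only 2 of them passed against a fold of 1.5. MAP3K8, the kinase (TPL2) that links NF-kB1 p105 to ERK, rose most, with 12.5 ± 1.25 CPM under CU-T12-9 and 3.14 ± 0.832 CPM under DMSO (SD, n = 2 in each group; log2 fold change 1.99, edgeR adjusted p = 9.17e-06). MAP3K5 (ASK1) and RPS6KA1 (RSK1) rose by 0.83 and 0.42 on the log2 scale. The largest falls were in MAP2K6, a p38 activator with 21 and 16 reads under CU-T12-9 and 45 and 32 under DMSO, RPS6KA5 (MSK1) and MAP3K1 (MEKK1), with log2 fold changes of -0.93, -0.44 and -0.34. DESeq2 called neither MAP2K6 (adjusted p = 0.135) nor RPS6KA5 (adjusted p = 0.0781), and without the first DMSO library both calls were lost (adjusted p = 0.2 and 0.132). MAP2K6 also lost its call with the second CU-T12-9 library left out (adjusted p = 0.06). The JNK1 gene MAPK8 had a log2 fold change of 0.01 and was not called.

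Of the 10 genes listed as regulators of the FOS and JUN promoters, 4 were higher and 2 lower, with a median log2 fold change of 0.16. The ternary complex factors ELK3 and ELK1 and the SRF co-activator MKL1 rose by 0.81, 0.54 and 0.81 on the log2 scale, with MKL1 at 211 ± 9.40 CPM under CU-T12-9 and 120 ± 5.52 CPM under DMSO (SD, n = 2 in each group). MEF2D and MEF2C, MADS-box factors that act at the JUN promoter, fell by 0.46 and 0.19. The MEF2C call was lost in DESeq2 (adjusted p = 0.169), with RLE and upper-quartile factors (adjusted p = 0.062 and 0.0626), without either DMSO library (adjusted p = 0.214 and 0.093) and with the first CU-T12-9 library left out (adjusted p = 0.215). Of 10 turnover genes 3 were higher and 3 lower, with a median of -0.05. Against a fold of 1.5, 1 was higher and 0 lower. ZFP36L1, which promotes decay of mRNAs with AU-rich elements, averaged 32.8 ± 2.24 CPM under CU-T12-9 and 1.98 ± 0.146 CPM under DMSO (log2 fold change 4.04, SE 0.12, edgeR adjusted p = 9.67e-09). ITCH, a ubiquitin ligase of JUN proteins, and ZFP36 (tristetraprolin) rose by 0.38 and 0.35, and the RNA-binding protein genes HNRNPD (AUF1), KHSRP and ELAVL1 (HuR) fell by 0.62, 0.55 and 0.49 on the log2 scale. FBXW7, the ligase that marks phosphorylated JUN for decay, had a log2 fold change of 0.00.

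Textbook AP-1 target genes were higher in 9 of 16 tested cases and lower in 3, with a median log2 fold change of 0.94. The other 10 of the 26 listed, such as MMP1 and IL2, fell below the read minimum. Genes hardly read under DMSO could pass that minimum only through a rise, so these counts lean towards rises. Only mRNA was read, so AP-1 protein and its action on these genes were not tested. The gelatinase gene MMP9 had 141 and 158 reads under CU-T12-9, against 1 and 3 reads under DMSO (log2 fold change 6.25, SE 0.35, edgeR adjusted p = 4.58e-07). Its fitted log2 fold change was 5.63 without the first DMSO library and 7.21 without the second, and the ratio of the summed reads was 81.2, with an exact 95% counting interval from 31.4 to 300.1. The chemokine gene CXCL8 (IL8 in the table) averaged 43.4 ± 4.18 CPM under CU-T12-9 and 2.76 ± 0.108 CPM under DMSO (SD, n = 2 in each group). CCL2, another chemokine gene, averaged 36.0 ± 1.53 CPM under CU-T12-9 and 2.87 ± 0.849 CPM under DMSO. Falls in EZR, PLAU and TGFB1 measured -0.64, -0.52 and -0.23 as log2 fold changes. The call of TGFB1 was lost in DESeq2 (adjusted p = 0.0635), with RLE and upper-quartile factors (adjusted p = 0.0674 and 0.0596) and with the first CU-T12-9 library left out (adjusted p = 0.262). CCND1, a classical AP-1 target of cycling cells, had a log2 fold change of 0.04 and was not called.

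BATF proteins act with IRF4 and IRF8, and these partners went opposite ways. IRF4 averaged 63.7 CPM under CU-T12-9 and 44.5 CPM under DMSO (log2 fold change 0.52, edgeR adjusted p = 0.000183). IRF8 averaged 469 ± 11.7 CPM under CU-T12-9 and 600 ± 24.8 CPM under DMSO (SD, n = 2 in each group; log2 fold change -0.36, edgeR adjusted p = 0.000256). The list of these partners and of BATF-dependent programmes held 14 genes. Of the 10 tested, 6 were higher and 1, IRF8, was lower, with a median of 0.52. Against a fold of 1.5, 3 were higher and 0 lower, and neither IRF4 nor IRF8 was called. PRDM1 (BLIMP1), the dendritic cell factor gene ZBTB46 and BCL6 rose by 2.81, 2.29 and 2.27 on the log2 scale. XCR1 and CLEC9A, which mark the dendritic cells that depend on BATF3 in mice, fell below the read minimum, as did IDO1 and IL10.

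In the stress arm beside ATF3, 4 of 9 tested genes were higher and 4 lower (2 lower in DESeq2, and 2 without the first DMSO or the second CU-T12-9 library), with a median log2 fold change of 0.18. CHAC1, a glutathione-degrading enzyme, ATF5 and PPP1R15A (GADD34) rose by 3.34, 1.90 and 1.69 on the log2 scale. Against a fold of 1.5 these were the 3 higher genes of the list, and 0 were lower. TRIB3, DDIT3 (CHOP) and ASNS fell by 0.77, 0.50 and 0.25, each a call under edgeR. ATF4, the factor known to induce many genes of this arm, had a log2 fold change of -0.15 (edgeR adjusted p = 0.0422), a call lost in 7 of 11 alternative analyses, whose adjusted p reached 0.232. Those were DESeq2, RLE and upper-quartile factors, the 1 CPM filter, either DMSO library left out and the second CU-T12-9 library left out. The ASNS call was lost in DESeq2 (adjusted p = 0.0953) and with the first DMSO library or the second CU-T12-9 library left out (adjusted p = 0.13 and 0.0592).

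**Figure D4:**
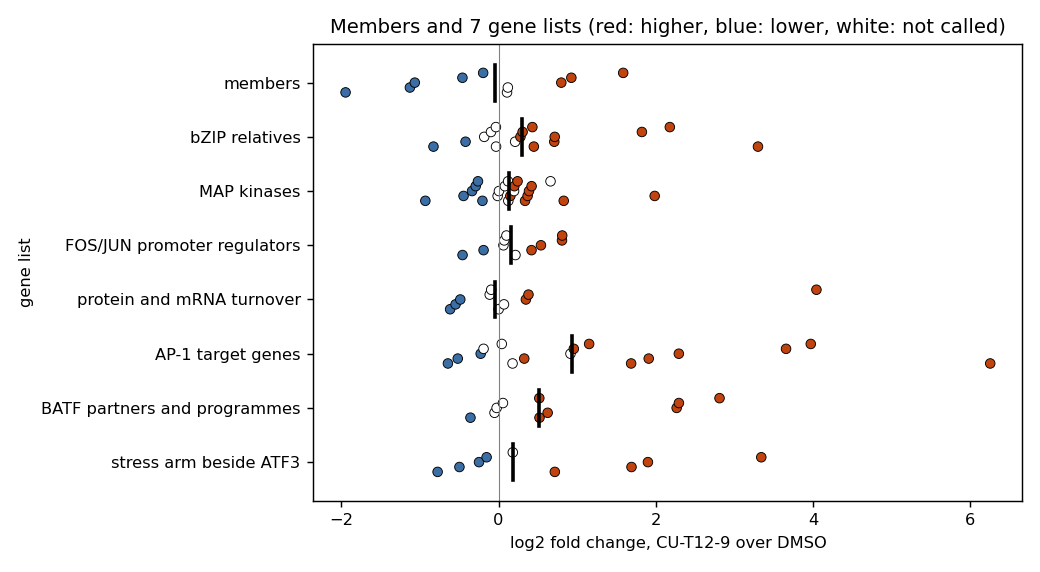
Log2 fold change (CU-T12-9 over DMSO) of the 10 members and of the tested genes of 7 lists, 1 point per gene, with a black bar at each median. Medians run from -0.05 for the turnover genes to 0.94 for the AP-1 target genes, and the 10 members lie on both sides of 0 with a median of -0.04.

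The genes whose pattern over the 4 libraries was most like that of JUN, by Euclidean distance of centred log2 CPM among 10437 other genes, were SLC35D2, SMAD7 and IRF7, at distances of 0.07, 0.08 and 0.10. For FOSL2 they were ACSS1, MOCS2 and RCC1, at distances of 0.02, 0.03 and 0.03. With 4 libraries in 2 groups such likeness is mostly a like fold change: 1.53, 1.57 and 1.56 on the log2 scale for the first set, and -1.12, -1.12 and -1.14 for the second.

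Library totals were 23201117 and 23087102 reads for CU-T12-9 and 25867733 and 23892934 reads for DMSO. All 8 myeloid leukaemia markers examined, CD33, FLT3 and HOXA9 among them, were read in each library, while CD3D, EPCAM, CDH1 and the 3 erythroid markers had no read in any. The summed fibroblast markers ran from 0.953 to 1.34 CPM under CU-T12-9 and from 0.377 to 0.503 CPM under DMSO, driven by DCN (21 and 15 reads under CU-T12-9, 0 and 0 under DMSO), and their part in the results was not tested. KRT8, an epithelial keratin gene, had 57 and 57 reads under CU-T12-9 and 78 and 88 reads under DMSO.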

How the data were processed

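RNA sequencing counts of 2 CU-T12-9 and 2 DMSO libraries of MV4;11 cells were used. The authors deposited 1 table of raw read counts per gene symbol, with every column assigned to a library by its title. Per the submitters' processing notes, FastQC 0.11.7, TopHat2, featureCounts 1.5.2 and GRCh37 were used. The sources used here give no annotation, strand setting or rule for multiply mapping reads, so overlapping, antisense and near-identical genes are uncertain.

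The counts were fitted for all genes with edgeR 4.0.16 in R 4.3.3 (quasi-likelihood F-test, group as the only term, filterByExpr, TMM factors). P-values were adjusted by Benjamini-Hochberg across the 14018 tested genes (threshold 0.05), and glmTreat gave the test against a fold of 1.5. CPM uses TMM-adjusted library sizes. A single read was worth 0.0384 to 0.0442 CPM. Standard errors were derived from the F statistic. Alternatives were DESeq2 1.42.0, limma-voom (limma 3.58.1), other scalings and filters, each library left out, and the replicate number as a block. The script was tested on simulated data.

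The members and 7 gene lists were chosen with earlier results of these data known. The text names every member and, per list, the 3 largest rises and 3 largest falls among called genes with at least 1 CPM in a group, plus single genes chosen after their values were seen (MAPK8, FBXW7, CCND1, IRF4, ATF4). A gene that this rule selects is not reported here. Likeness used genes with at least 5 CPM in a group. CXCL8 was matched to IL8 through RefSeq synonyms, and promoter windows are from RefSeq.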

Additional observations from a re-analysis of the deposited data

How the results depend on the processing

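The number of higher members stayed at 3 under every alternative except without the first CU-T12-9 library, where FOS made it 4, and the number of lower members was 4 or 5, depending on JUND. JUN, JUNB, ATF3, FOSL1, FOSL2, BATF and BATF3 kept their direction and call in all 11 alternatives. JUN ranged from 1.44 to 1.75 on the log2 scale, FOSL2 from -1.17 to -1.09 and BATF3 from -2.52 to -1.53. The log2 fold change of FOS with 1 library left out ran from -0.015 (without the second CU-T12-9 library, a reversal) to 0.25 (without the first), and the cause was not tested. Tests with 1 library left out assume that the lone library varies like the pair of the other group. Near 0 and never called, MAPK8 reversed to -0.0072 with no filter and, with 1 library left out, ran from -0.028 to 0.043; FBXW7 reversed to -0.011 with no filter and ran from -0.037 to 0.066; and CCND1 ran from -0.27 to 0.33. JUND lost its call with DESeq2, RLE factors, upper-quartile factors, the 1 CPM filter and with each of 3 libraries (both DMSO ones and the first CU-T12-9 one) left out in turn, its adjusted p then lying between 0.055 and 0.377. With the replicate number as a block, 3 members were higher and 5 lower, as without it, and 4488 and 4655 of all genes were called higher and lower. Same-numbered libraries did not deviate together (correlation 0.01 across genes), so the numbers were not taken as pairs. Of 418 values of the 38 genes that the naming rule selects from the lists under these alternatives, 399 kept their direction and call and 19 kept only the direction. Low counts limit FOSB and BATF3, at 8 to 60 reads in a library. Among the lists, lower calls moved by over 1.5 times for the bZIP relatives (2, against 1 without the second DMSO library and 4 without the second CU-T12-9 library), the MAP kinases (6, against 3 in DESeq2 and without the first DMSO library), the promoter regulators (2, against 1 in DESeq2, with RLE or upper-quartile factors, and without either DMSO library or the first CU-T12-9 library) and the stress arm (4, against 2 in DESeq2 and without the first DMSO or second CU-T12-9 library).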

Other observations

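The treated libraries differed from each other in several members at once. The second CU-T12-9 library stood above the first by 1.21-fold in JUN and in ATF3, 1.19-fold in JUND, 1.18-fold in FOS and 1.15-fold in JUNB. The ratio was 1.03 in FOSB, 1.01 in FOSL2, 0.998 in BATF and 0.918 in FOSL1. Over 10438 genes with at least 5 CPM in a group, the same ratio had a median of 1.01 and a 5% to 95% range of 0.806 to 1.2. Of the members above that CPM minimum, only JUN and ATF3 lay above the range, by a small margin. BATF3 and FOSB lie below that minimum and are not comparable with that range: BATF3 had 17 and 8 reads in these libraries, and FOSB 20 and 20. In the DMSO pair the ratios of JUN, ATF3, JUND, FOS and JUNB were 0.828, 0.996, 1.00, 0.912 and 1.04.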
